A study of Sus scrofa with 2 samples.

Results

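Chromosome 10 of the pig was examined along its whole length by array-based comparative genomic hybridization of an angiosarcoma-like liver tumor and of non-tumor control tissue. All probes whose deposited position lay on chromosome 10 were taken, which gave 5447 of 177440 probes (3.07%) on each array. The tumor came from a female pig whose liver was resected 10 months after a single intraperitoneal dose of 200 mg/kg diethylnitrosamine (DENA), a liver carcinogen. The control tissue was also liver of a female pig, and since the same treatment text stands on both samples, it is not stated whether that animal had received DENA. Tissue had been embedded in paraffin and micro-dissected before genomic DNA was isolated, and breed and age are not given in the labels. On both arrays tissue DNA carried the dye Cy3 and reference DNA from female liver, age-matched control liver according to the methods, carried Cy5, and it is not stated whether the same reference DNA was used on each. With 1 array per tissue there was no replicate, so no test between the tissues was made, spread is given as SD over probes or windows, and the number of arrays limits the precision. As tumor and control were placed on different slides, the slide cannot be told apart from the tissue.

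In this method tissue and reference DNA compete for probes of known genomic position, so that the ratio of both signals, taken on the log2 scale, tracks how many copies of the site the tissue holds relative to the reference. Chromosome 10 is among the smaller pig chromosomes, has a short and a long arm, and carries one of the nucleolus organizer regions, where ribosomal RNA genes lie in repeated copies. Its arms correspond to stretches of several human chromosomes. Losses of tumor suppressor genes and gains of growth-promoting genes are known features of many tumors, but the spot columns name no genes, so regions are described by position only, as the arrays give it. Where every cell of a tissue had lost 1 of the copies of an autosome, a log2 ratio of -1 would be read, and where every cell had gained 1, a log2 ratio of 0.58. In dissected tissue the share of altered cells and the number of copies per altered cell cannot be told apart.

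The probes were 45 bases long, lay 10175 bp apart in the median, and ran from position 1 to position 66612995. The widest gap without probes, 527205 bp, lay between 32522120 and 33049326. The median background-subtracted signal on chromosome 10 was 73.0 in the tumor channel, next to 126 in the reference channel of that array. On the control array it was 53.1 in the tissue channel and 100.1 in the reference channel. Tissue signals were well above background at 82.2% of the chromosome 10 probes on the tumor array and at 79.3% on the control array. The tumor array was thus the brighter of both, and its noise, estimated over all chromosomes from the differences of adjacent log2 ratios, was 0.401 against 0.422 for the control. No chromosome 10 spot was saturated, and 1 spot of the tumor array was left out for an outlier flag.

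The median log2 ratio of tissue over reference, centred on the autosomes of the same array, over the whole of chromosome 10 was -0.01 on the tumor array (SD over 5446 probes 0.49) and 0.02 on the control array (SD over 5447 probes 0.51). Both medians were thus far from the values of a copy lost or gained in every cell, -1 and 0.58. Along the chromosome the ratios were summarised as medians in 67 windows of 1 Mb, which held between 21 and 104 probes. The lowest, median and highest window lay at -0.39, 0.01 and 0.40 in the tumor, and at -0.20, 0.02 and 0.28 in the control tissue. The tumor windows were thus spread more widely, with an SD over windows of 0.154 against 0.0830, and no window on either array reached -1 or 0.58.

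**Figure D1:**
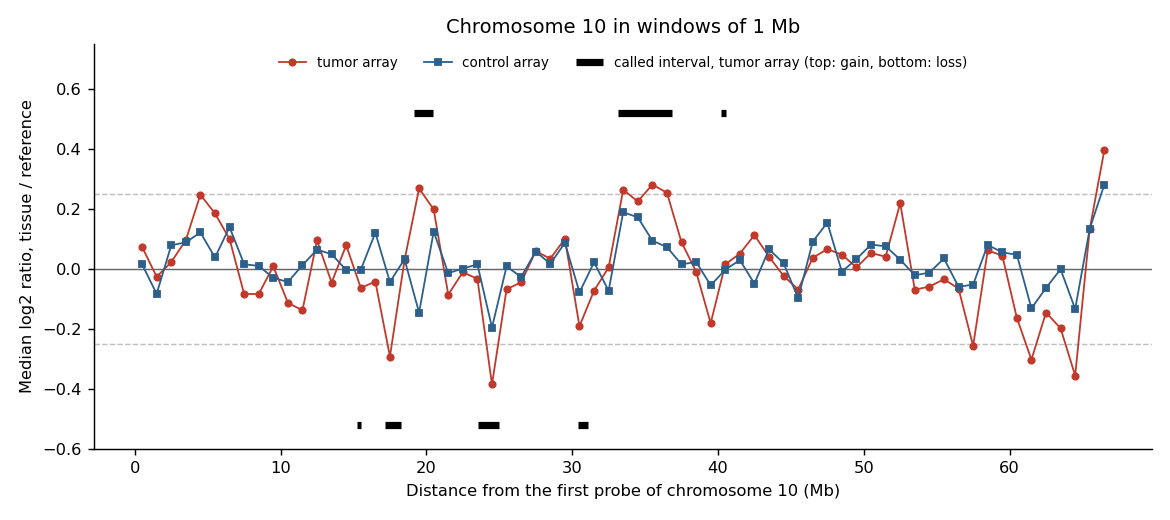
Median log2 ratio of tissue over reference in each of the 67 windows of 1 Mb against the distance from the first probe of chromosome 10 in Mb, for the tumor array (circles) and the control array (squares), with dashed lines at -0.25 and 0.25 and black bars for the 7 intervals called on the tumor array (bars widened slightly so that the shortest can be seen). Both lines rose and fell together over most of the chromosome, with the tumor line between -0.39 and 0.40 and the control line between -0.20 and 0.28, and they parted at the window from 19 to 20 Mb.

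On the tumor array 31 of the 67 windows lay below 0, or 46.3%, where 42.9% of all 2271 windows of chromosomes 1 to 18 and X did. In the control tissue 25 windows, or 37.3%, lay below 0 against 45.4% of all windows. This control share was not stable, at 11.9% with centring on the mode and 55.2% with normexp background correction. Most windows were close to 0, and 42 in the tumor and 54 in the control lay within 0.1 of it. On the tumor array 5 windows were at or below -0.25, where 11.6% of all windows were, and 5 were at or above 0.25, where 9.6% of all were. Both shares of chromosome 10, 7.46% on either side, were under the shares of the whole genome. On the control array 0 windows were at or below -0.25 and 1 was at or above 0.25, with 0.308% and 0.705% of all windows as background.

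The 5 windows with the highest tumor medians lay in 3 places. The highest was the last one, from 66 to 67 Mb, whose median was 0.40 on the tumor array (SD over 21 probes 0.41) and 0.28 on the control array (SD 0.54). This window at the chromosome end was thus above 0 on both arrays, ranked 9 from the top among all 2271 windows on each array, and held the fewest probes of chromosome 10. Of its 21 probes 4 carried a surrogate on the tumor array, a value that the extraction software sets in place of a signal too close to background, which was the highest share among the 67 windows. Its medians were 0.27 and 0.09 with the deposited log ratio, and 0.16 on both arrays with the trend of the ratio on local probe brightness removed. Another group lay between 33 and 37 Mb, next to the widest gap. There the windows from 33 to 34, 35 to 36 and 36 to 37 Mb had tumor medians of 0.26 (SD 0.58), 0.28 (SD 0.57) and 0.25 (SD 0.59). The control medians of these windows were 0.19 (SD 0.65), 0.09 (SD 0.67) and 0.07 (SD 0.51), again above 0 and lower than in the tumor. With the trend on brightness removed the tumor medians were 0.02, 0.06 and 0.08 and the control medians 0.08, -0.02 and 0.0036, so that neither the sign in the control nor the order of the arrays held throughout. The window from 19 to 20 Mb had a tumor median of 0.27 (SD over 25 probes 0.49) and a control median of -0.15 (SD 0.73), and it was the one window of this group with opposite signs.

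The 5 windows with the lowest tumor medians lay between 17 and 25 Mb and between 57 and 65 Mb. From 24 to 25 Mb the tumor median was -0.39 (SD over 99 probes 0.46) and the control median -0.20 (SD 0.45), the lowest chromosome 10 window on both arrays. From 64 to 65 Mb the medians were -0.36 (SD over 91 probes 0.42) and -0.13 (SD 0.37), and from 61 to 62 Mb they were -0.30 (SD over 57 probes 0.40) and -0.13 (SD 0.30). In these 3 windows both tissues lay below the reference, and the tumor lay lower. With the trend on brightness removed the medians were -0.01 in the tumor and -0.02 in the control from 24 to 25 Mb, -0.08 and -0.03 from 64 to 65 Mb, and 0.04 and -0.01 from 61 to 62 Mb, so that the tumor was the lower in 1 of the 3. From 17 to 18 Mb the tumor median was -0.29 (SD 0.49) and the control median -0.04 (SD 0.50). From 57 to 58 Mb the tumor median was -0.26 (SD 0.37) and the control median -0.05 (SD 0.52). In both of these windows the control median lay nearer to 0 than the tumor median, also with the trend on brightness removed, where the tumor medians were -0.20 and -0.14 and the control medians 0.0039 and -0.02. The longest run of windows on one side of 0 was 7 on each array, above 0 from 46 to 53 Mb on the tumor array and above 0 from 2 to 9 Mb on the control array.

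The tumor and the control array were then compared window by window. Tumor minus control had a median of -0.02 over the 67 windows, and 41 differences were below 0 (61.2%, where 47.6% of all windows were). The sign of this median was not stable, as it was 0.0063 with probes well above background, 0 with the deposited log ratio and -0.10 with centring on the mode. The lowest difference was -0.249, from 17 to 18 Mb, followed by -0.22 from 64 to 65 Mb and -0.21 from 60 to 61 Mb, where the tumor median was -0.16 and the control median 0.05. The opposite signs from 60 to 61 Mb were not kept in 2 other settings, with medians of 0.04 and 0.12 with the trend on brightness removed and -0.29 and -0.16 with normexp. The highest was 0.41, from 19 to 20 Mb, followed by 0.19 from 52 to 53 Mb, with medians of 0.22 and 0.03, which were -0.01 and -0.06 with the trend on brightness removed, and 0.19 from 35 to 36 Mb. The window from 19 to 20 Mb thus stood apart, and its difference was the 3rd highest of all 2271 windows. A difference at or above 0.25 was found in 1 window, where 2.64% of all windows had one, and a difference at or below -0.25 in 0 windows, where 3.7% had one. Opposite signs together with a tumor median past 0.25 in size were found in 1 of the 67 windows, with a background of 0.969%.

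Consecutive probes that shifted together were searched for with a score, which sums their log2 ratios and scales the sum by the noise times the square root of the probe number, after the ADM-1 algorithm of Agilent. An interval was called at a score of at least 6, if it held at least 3 probes and its mean was at least 0.25 in size, and it is called a loss or a gain by the sign of its mean only. On the tumor array 7 intervals of chromosome 10 were called, 6.76 Mb in all, and on the control array 0. These counts are not compared, since the search does not look inside an interval dropped for its mean. On the control array such a dropped stretch, 4750 probes from 1985051 to 59616295, covered all 7 sites. With the limit applied during the search, 1 interval was called on the control array, from 19516576 to 20103995. The 4 losses held 217 probes, 3.98% of the chromosome, where 6.39% of all probes lay in called losses. The 3 gains held 299 probes, 5.49% of the chromosome, where 0.674% of all probes lay in called gains. The share in gains rested on 1 interval of 268 probes with a mean of 0.25, just past the limit, and without it 31 probes, or 0.569%, lay in gains. This interval was not called with centring on the mode, the deposited log ratio, normexp or the trend on brightness removed, and with centring on the mode a loss of 434 probes from 59792926 to 64775020 was called in addition, so that neither share is read against the genome. On the control array 0.00338% of all probes lay in called losses and 0.174% in called gains.

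The wider losses were shallow, and none of the 3 was called with normexp or with the trend on brightness removed. Since the search does not look inside an interval dropped for its mean, a missing call is not by itself a missing shift. The one from 30575876 was also not called with probes well above background or with only probes without a surrogate. The interval from 23684626 to 24837220 averaged -0.37 on the tumor array (SD over 115 probes 0.44, score 9.83) and -0.07 on the control array (SD 0.48). Of its probes 100 lay below 0 on the tumor array, and the probe nearest its centre, at 24260901, read -0.63 in the tumor and -0.33 in the control. With normexp background correction the means over these probes were -0.48 in the tumor and -0.33 in the control, and a loss from 23968601 to 24837220 was called on the control array (mean over 88 probes -0.41, score 11.5) and not on the tumor array. As the tumor mean was the lower over these probes, the missing tumor call is not read as a loss confined to the control. The interval from 17301201 to 18135595 averaged -0.34 (SD over 69 probes 0.42, score 7.05) and -0.05 on the control array (SD 0.48). Here 55 probes lay below 0, and the central probe, at 17716526, read -0.28 in the tumor and -0.36 in the control. The interval from 30575876 to 30962570 averaged -0.47 (SD over 30 probes 0.48, score 6.45) and -0.13 on the control array (SD 0.41). In it 27 probes lay below 0, and the central probe, at 30778451, read -0.46 in the tumor and -0.72 in the control. The tumor was the higher at 21 of 115, 15 of 69 and 7 of 30 probes of these 3 intervals, so that it was the lower at most probes of each, although the central probe of the last 2 was lower in the control. Removing the trend on brightness gave means, in order of position, of -0.18, -0.04 and -0.34 in the tumor and 0.0077, 0.06 and -0.08 in the control. The control mean of all 3 lay below 0 as measured, but that of the first 2 was thus above 0 under this setting, as was that of the interval from 17301201 with centring on the mode, at 0.02.

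The 4th loss, from 15369801 to 15394820, rested on 3 probes and had a mean of -1.83 on the tumor array (SD 1.26, score 7.90) and 0.15 on the control array (SD 0.55). Its probes at 15369801, 15384601 and 15394776 read -3.06, -0.54 and -1.88 in the tumor and 0.05, -0.35 and 0.75 in the control. The outer probes were thus far lower in the tumor, and the middle one lay below 0 in both tissues. Background-subtracted tumor signals at these probes were 4.71, 22.8 and 5.66 against reference signals of 71.7, 63.5 and 38.5 on the same array, and 1 of the 3 probes was well above background in both channels. Between the arrays the tissue channel of the tumor was lower by a mean log2 difference of -2.04 (SD 1.62), whereas the reference channel differed by -0.08 (SD 0.16). The well-measured middle probe differed by -0.23 in the tissue channel, so these means rest on the outer probes, whose tumor signals were near background. The tumor mean of the interval was -0.54 when only the probe well above background was kept and -0.32 with normexp, so its depth depended on the dim probes. The interval was not called under either of these settings.

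The widest gain ran from 33314801 to 36670745 and had a mean of 0.25 on the tumor array (SD over 268 probes 0.57, score 10.4), just past the limit on the mean. On the control array the same probes had a mean of 0.15 (SD 0.60), and 198 of them lay above 0 on the tumor array. The central probe, at 34996451, read -0.13 in the tumor and -0.04 in the control. Between the arrays the tissue channel differed by 0.06 (SD 0.60) and the reference channel by -0.06 (SD 0.45). With the trend on brightness removed the means were 0.03 in the tumor and 0.04 in the control, and the gain was not called. It lay where the probes were dim, and 34 of the 268 carried a surrogate. Without these 34 probes the mean on the tumor array was 0.28.

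The shortest gain, from 40372551 to 40410520, averaged 1.45 (SD over 3 probes 0.98, score 6.27) on the tumor array and 0.76 (SD 1.25) on the control array. Its probes at 40372551, 40400301 and 40410476 read 2.06, 1.98 and 0.32 in the tumor and 0.94, 1.91 and -0.58 in the control. Background-subtracted signals of the first 2 probes were 10.5 and 8.83 for tissue and 4.67 and 3.89 for reference on the tumor array, and -1.48 and 14.6 for tissue and 3.34 and 8.06 for reference on the control array. These probes were thus near background on both arrays, and 1 of the 3 probes was well above background in both channels of the tumor array. With that probe alone the tumor mean was 0.32, and with normexp it was 0.52. The gain was called neither with probes well above background nor with normexp. It was also not called with only probes without a surrogate or with a minimum of 10 probes.

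**Figure D2:**
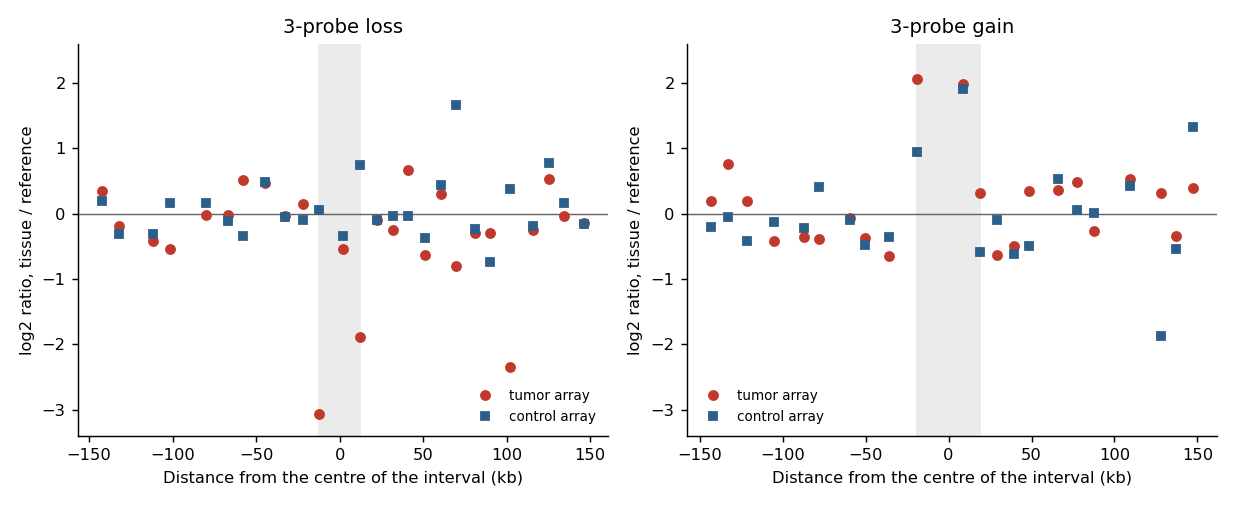
Log2 ratio of tissue over reference at each probe within 150 kb of the centre of the 3-probe loss (left) and of the 3-probe gain (right), for the tumor array (circles) and the control array (squares), with the interval shaded. In the loss 2 tumor probes lay at -3.06 and -1.88 with control probes near or above 0, and in the gain the probes at 2.06 and 1.98 in the tumor were at 0.94 and 1.91 in the control.

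The remaining gain, from 19319551 to 20290845, held 28 probes with a mean of 0.50 on the tumor array (SD 0.43, score 6.57) and -0.22 on the control array (SD 0.80). With normexp the means were 0.19 and -0.20, and the gain was not called. Of these probes 26 lay above 0 on the tumor array, and the one nearest the centre, at 19809801, read 0.92 in the tumor and -1.69 in the control. As in the 3-probe loss, the tissues lay on opposite sides of the reference. Within it, a stretch of 12 probes from 19516576 to 20103995 passed the score on the control array as a loss (score 7.25) when the limit on the mean was applied during the search, and it is described further because of these values, without a test.

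In this stretch of 587 kb the lowest, median and highest probe read -0.64, 0.68 and 0.95 on the tumor array and -2.28, -0.72 and 0.07 on the control array. The tumor mean was 0.54 (SD 0.47) and the control mean -0.88 (SD 0.64). Most probes lay on opposite sides of 0, with 11 of 12 above 0 in the tumor and 11 of 12 below 0 in the control. The tumor was higher at 11 of the 12 probes, by a mean log2 difference of 1.42 (SD 0.89). Single probes showed the same order, as the one at 19983701, with 0.91 in the tumor and -1.33 in the control, and the one at 19645151, with 0.20 and -2.28. The exception was the probe at 20059551, with -0.64 in the tumor and -0.35 in the control.

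Between the arrays the tissue channel was higher in the tumor by 1.31 (SD 1.04) on the log2 scale, whereas the reference channel differed by -0.13 (SD 0.31). The difference between the tissues thus lay in the tissue channel, with 11 of the 12 probes well above background in both channels in the tumor and 9 in the control. At the central probe the background-subtracted tissue signal was 287 in the tumor and 35.2 in the control, and the reference signals were 287 and 226. In the flanks of 500 kb on each side, 59 probes, the tumor mean was 0.16 (SD 0.48) and the control mean 0.18 (SD 0.50), with channel differences of -0.03 for tissue and -0.03 for reference. The means of the tissues thus lay far apart within the stretch and close together in its flanks. As the ends of the stretch were set by these ratios, part of this contrast follows from the choice. The flanks also hold the other probes of the called gain. Probes were sparse in the stretch, with a median spacing of 23125 bp.

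**Figure D3:**
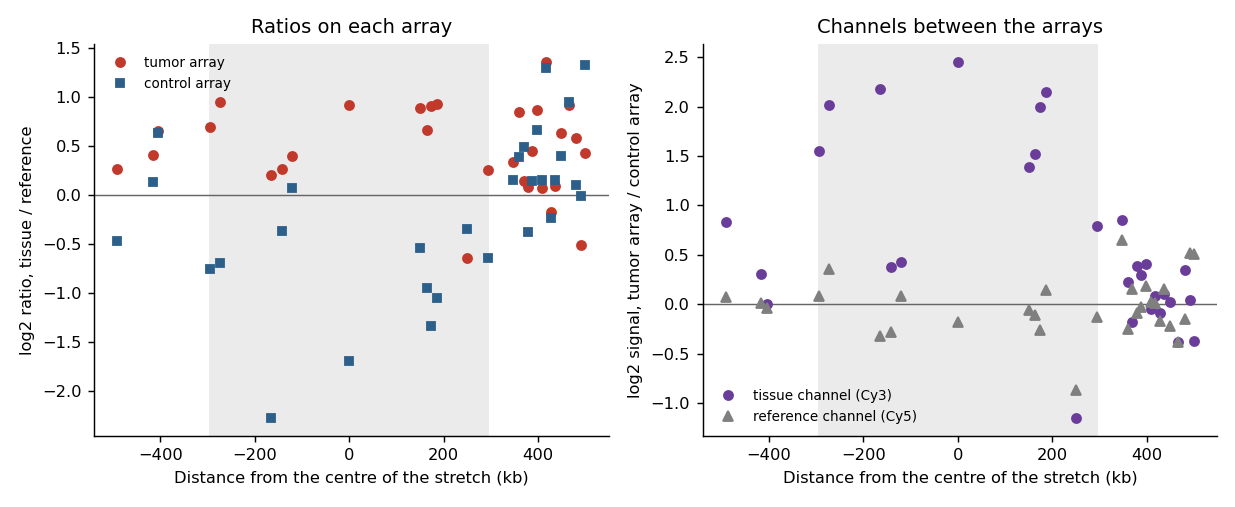
Values at each probe within 500 kb of the centre of the 12-probe stretch (shaded). The left panel shows the log2 ratio of tissue over reference on the tumor array (circles, 11 of 12 above 0) and the control array (squares, 11 of 12 below 0), and the right panel the centred log2 signal of the tumor array over the control array in the tissue channel (circles, mean 1.31) and the reference channel (triangles, mean -0.13).

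When the same search was run on the difference of the log2 ratios between the arrays, tumor minus control, 131 intervals were called on all chromosomes and 5 of them on chromosome 10. The one from 19516576 to 19996695, with a mean difference of 1.67 (SD over 10 probes 0.74, score 11.9), had the 3rd highest score of the 131 and the largest mean in size of the 20 intervals with at least 10 probes. Its 10 probes lie within the stretch above, so this restates the same values. The others on chromosome 10 were lower in the tumor and held few probes. They had mean differences of -1.95 over 3 probes at 15369801, -1.19 over 6 probes at 23708676, -1.60 over 3 probes at 55114276 and -1.34 over 4 probes at 58683851. Thus the losses from 17301201 to 18135595 and from 30575876 to 30962570 and the gains from 33314801 to 36670745 and from 40372551 to 40410520 met no call on the difference.

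Wider stretches passed the score and not the limit on the mean. On the tumor array these were 183 probes from 3681501 to 5919120 with a mean of 0.20 (SD 0.52, score 6.78) and 434 probes from 59792926 to 64775020 with a mean of -0.25 (SD 0.46, score 12.8), the highest score on the chromosome in this search. In the control the same probes had means of 0.11 (SD 0.56) and -0.05 (SD 0.39). Of the 434 probes of the latter, 329 lay below 0 on the tumor array. Normexp gave a called loss there, from 59817901 to 64712120 with a mean of -0.33 and a score of 23.1. Removing the trend on brightness, which for these stretches was an alternative chosen after seeing the data, left means of 0.03 and -0.04 in the tumor and 0.04 and 0.03 in the control. The control array held 1 such stretch, 4750 probes from 1985051 to 59616295 with a mean of 0.06 (SD 0.52, score 9.98). It covered every interval called on the tumor array, and the search did not look inside it on the control array. The median over these probes was 0.02, and 2490 of the 4750 lay above 0. On this array the mean over all chromosome 10 probes was 0.05 and the median 0.02, and what the score reflects was not tested.

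With regard to position, the first 5 Mb had a median of 0.08 on the tumor array (SD over 422 probes 0.52) and 0.06 on the control array (SD 0.55). The first window, from 0 to 1 Mb, had medians of 0.07 (SD over 59 probes 0.50) and 0.02 (SD 0.54). The last 5 Mb had -0.17 on the tumor array (SD over 387 probes 0.47) and -0.01 on the control array (SD 0.44), although the very last window lay above 0 on both. The start of chromosome 10 thus lay slightly above the reference, and the tumor ratio of its end below it. In the other 11 chromosomes with 2 arms, the first 5 Mb had medians between -0.44 and -0.18 on the tumor array, and between -0.21 and -0.07 on the control array. Among all 18 autosomes the start of chromosome 10 ranked 4 from the top in the tumor and 3 in the control. There 5 and 4 autosomes, chromosome 10 included, had a start above 0. With the trend on brightness removed, an alternative chosen after seeing the data, the first 5 Mb of chromosome 10 had medians of -0.02 in the tumor and -0.0021 in the control, within the range of the other 11 chromosomes, -0.08 to -0.02 and -0.05 to 0.03. Its last 5 Mb then had medians of -0.02 and 0.03. Neither the raised start nor the lowered end was thus seen under that setting. The last 5 Mb of the other 11 chromosomes had medians between -0.31 and -0.04 on the tumor array and between -0.12 and 0.04 on the control array, so that the end of chromosome 10 lay within their range. In 4 parts of equal length the tumor medians were 0.01, -0.04, 0.06 and -0.07, and the control medians 0.03, -0.01, 0.04 and 0.0046.

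Among the 19 chromosomes, chromosome 10 had the lowest SD over window medians on the tumor array, 0.154, beside 0.207 on chromosome 11 and 0.193 on chromosome 12, the chromosomes with 2 arms nearest to it in size. On the control array its SD of 0.0830 was the 4th lowest, beside 0.105 and 0.0910. The highest number of called intervals was found on chromosome 10 as well, with 7, or 10.5 per 100 Mb, against 5 on chromosome 11, or 6.26 per 100 Mb, and 0 on chromosome 12. By called length it ranked 8 of 19, with 6.76 Mb against 42.8 Mb on chromosome 6. This order depended on the limit on the mean, which drops a wide shallow interval whole. With the limit applied within the search, 10 intervals were found on chromosome 10 of the tumor array, rank 15 of 19 by number and rank 5 per 100 Mb, and chromosomes 11 and 12 had 12 and 6. Under the same setting the control array had 1 interval on chromosome 10, the lowest number of the 19 chromosomes. The median ratio of chromosome 10 ranked 11 from the top in the tumor and 6 in the control, between chromosome 11, with 0.05 and 0.04, and chromosome 12, with -0.23 and -0.08.

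**Figure D4:**
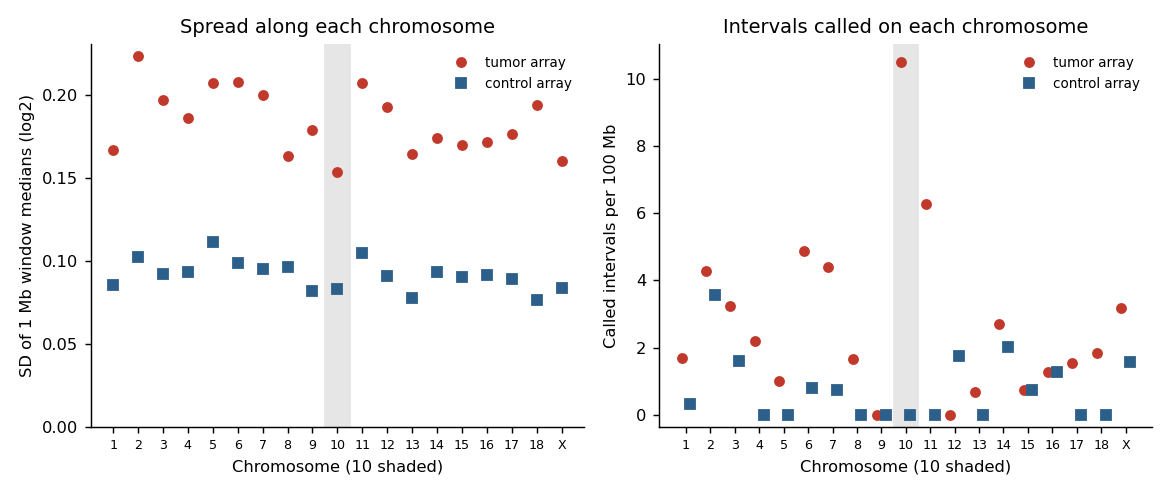
SD of the 1 Mb window medians on the log2 scale (left) and called intervals per 100 Mb with the limit on the mean applied after the search (right) for chromosomes 1 to 18 and X, on the tumor array (circles) and the control array (squares), with chromosome 10 shaded. On the tumor array chromosome 10 had the lowest SD, 0.154, and the most intervals, 10.5 per 100 Mb, and on the control array an SD of 0.0830 and 0 intervals. On the control array a stretch dropped for its mean, which the search does not enter, covered the sites of all these tumor intervals.

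Over the 67 windows the tumor and control medians had a Pearson r of 0.69 and a Spearman rho of 0.66, and over all 2271 windows a Pearson r of 0.77. The arrays share the probes and the kind of reference, and windows are not replicates, so this is a description with no test. With the trend on brightness removed r was 0.057. Over the single probes, 5446 of them, r was 0.309. The ratios also moved with brightness, taken from the reference channel of the other array as an average of log2 signals within 250 kb. Against it r was -0.81 for the tumor medians (rho -0.79) and -0.77 for the control medians (rho -0.76) on chromosome 10, and -0.91 and -0.77 over all windows. Bright regions thus had lower ratios on both arrays. In the 23 dimmest windows the medians were 0.09 in the tumor and 0.08 in the control, with 3 and 0 windows below 0, and in the 22 brightest they were -0.13 and -0.03, with 20 and 15 below 0. Tumor minus control had an r of -0.54 (rho -0.58) with brightness from the reference channel of the control array. That channel is also part of the control ratio in this difference.

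When the trend on brightness, learned on the other autosomes, was removed, the SD over windows fell to 0.0955 in the tumor and 0.0509 in the control. On the tumor array 1 window then lay past 0.25 in size, from 19 to 20 Mb, at 0.52, and on the control array 0. The intervals called on the tumor array were then 3, from 15369801 to 15394820 with a mean of -1.80, from 19097551 to 20290845 with a mean of 0.50 over 32 probes, and from 40372551 to 40410520 with a mean of 1.39. The losses from 17301201, 23684626 and 30575876 were no longer called, with tumor means of -0.18, -0.04 and -0.34 over the same probes, so that the last stayed past 0.25 in size without reaching the score. The gain from 33314801 was not called either, with a mean of 0.03. What links ratio and brightness was not tested.

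**Figure D5:**
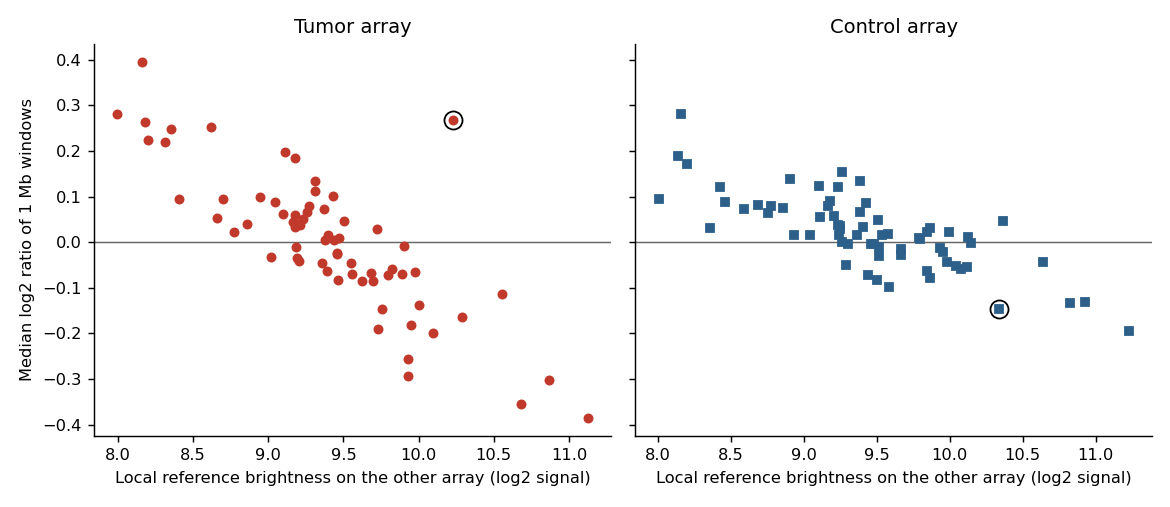
Median log2 ratio of each 1 Mb window of chromosome 10 against local brightness, the average log2 signal of the reference channel on the other array, for the tumor array (left, r = -0.81) and the control array (right, r = -0.77). Ratios fell with brightness on both arrays, and the window from 19 to 20 Mb (ringed) lay above the other bright windows in the tumor, at 0.27.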

How the data were processed

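Per the submitters' processing notes, spots were extracted by Agilent Feature Extraction 11.0.1.1. The deposited intensity of each spot is linear, and is given as foreground and background medians and as processed signals from which background was subtracted, with detrending and dye scaling. The deposited log10 ratio is red over green, is 0 at many spots with surrogate signals, and stands unchanged in the series table. The genome build of the probe positions is not given in the sources used here, so positions are those of the array, and the Sscrofa11.1 gene table was not used for them. The spot columns used here hold no gene name and no probe sequence, so no gene, sequence or GC content is given. The array formats named in the labels and the methods differ from each other and hold fewer probes than the files. There were 0 columns of other samples.

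Log2 ratios with tissue as the numerator were computed from the processed signals for probes without an outlier flag and centred on the median of the probes on chromosomes 1 to 18 of the same array, with no loess or quantile normalization. Windows of 1 Mb needed at least 5 probes. Channel differences between the arrays were centred in the same way. The search for intervals was recursive, with the limit on the mean applied after it, and was tested on simulated data before use. It recovered 56 of 60 simulated intervals with 0 extra calls. The simulated noise was independent between probes and had no trend on brightness, and no simulated interval was as short as 3 probes. How often calls are false on data with such features was thus not tested. The regions and probes named were every called interval with its central probe, the 5 highest and 5 lowest tumor windows, the 3 highest and 3 lowest differences, the first and last windows, and the 3 highest and 3 lowest probes well above background. Chromosome 10, these rules and the alternatives were chosen with earlier results of these data known. Alternatives were other centring, probe filters, sources of the ratio, background correction by normexp (offset 50), limits of the search, window sizes, a lowess trend on brightness (fraction 0.3) and the opposite direction of the ratio. The tools were R 4.3.3, limma 3.58.1, Python 3.11.15, matplotlib 3.10.9, numba 0.67.0, numpy 2.4.6, statsmodels 0.14.6, pandas 2.3.3 and scipy 1.17.1.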

Additional observations from a re-analysis of the deposited data

Results flagged for a closer look

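For 4 of the named windows, intervals and stretches past 0.25 in size, which lie at 2 sites, the tumor and the control array lay on opposite sides of the reference, and with 1 array per tissue the difference was not tested. The interval from 15369801 to 15394820 had a mean log2 ratio of -1.83 in the tumor and 0.15 in the control tissue, and of -0.32 and 0.15 with normexp. The interval from 19319551 to 20290845 had means of 0.50 and -0.22, and of 0.19 and -0.20 with normexp, under which it was not called. The window from 19 to 20 Mb, which lies mostly within that interval, had medians of 0.27 and -0.15, and of 0.11 and -0.28 with normexp. The stretch from 19516576 to 20103995, inside the same interval, had means of 0.54 and -0.88, and of 0.26 and -0.59 with normexp. The last 3 share probes and are not independent of each other.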

How the results depend on the processing

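Under 19 alternative settings 697 values of 54 quantities were recomputed, of which 591 moved by no more than the limit set for their kind, namely the SD over probes for interval means or over windows for ranges, a 95% interval for medians and shares, 0.1 for r and 1.5 times for counts and lengths. Of these, 20 changed sign, 11 by the opposite direction of the ratio and 9 under other settings. The SD over probes is a wide limit, and with the trend on brightness removed the tumor means of the intervals from 23684626 and 33314801 were -0.04 and 0.03 within it. An interval overlapping the gain from 19319551 to 20290845 was called on the tumor array in 11 of 13 alternative settings of the ratio or the search, one overlapping the loss from 15369801 in 10, the losses from 17301201 and 23684626 in 9 each, the loss from 30575876 and the gain from 40372551 in 8 each, and the gain from 33314801 in 7. Some of these outcomes were fixed in advance, as a mean of at least 0.1 keeps every call and a score of at least 12 drops all. The counts are thus not a measure of robustness. With the ratio as tissue over reference, the mean of the 12-probe stretch ranged from 0.26 to 0.65 in the tumor and from -0.88 to -0.59 in the control. With the trend on brightness removed, 3 intervals of 1.26 Mb were called on the tumor array, r between the arrays was 0.057, the range of the control windows was 0.233, and the tumor windows from 61 to 62, 60 to 61 and 52 to 53 Mb changed sign, to 0.045, 0.039 and -0.012. Normexp gave 3 called intervals in the tumor, from 38347726, 45479476 and 59817901, none of which overlapped the 7 others, 2 intervals of 1.33 Mb in the control, from 19645151 and 23968601, r of 0.876, a control median of -0.0069, a control range of 0.677 and 55.2% of control windows below 0. The search skips the inside of intervals dropped for their mean, so the lack of overlap is not by itself a changed profile. With normexp the tumor mean over the probes of the loss from 23684626 was -0.48. Centring on the mode gave medians of -0.029 for the tumor and 0.080 for the control, a difference of -0.10 and 11.9% of control windows below 0. The deposited log ratio and the series table each gave a called length of 3.72 Mb on the tumor array, r of 0.567, a control median of 0 and a control range of 0.334. Subtracting the control array left 0.593 Mb called. A score of at least 12 left 0 intervals and 0 Mb on the tumor array, a mean of at least 0.4 left 4 intervals of 1.42 Mb, and a mean of at least 0.1 gave 14.0 Mb. The limit on the mean during the search gave 12.1 Mb in the tumor, and in the control 1 interval of 0.587 Mb. Probes without a surrogate, an alternative chosen after seeing the data, also gave 1 control interval of 0.587 Mb, and probes well above background gave 1 of 0.294 Mb and a tumor minus control median of 0.0063. Window means gave r of 0.506, a difference of -0.072, a control range of 0.650 and 22.4% of control windows below 0. Windows of 5 Mb gave r of 0.905, ranges of 0.425 for the tumor and 0.192 for the control and 14.3% of control windows below 0. Apart from the changes that the stricter or looser limits of the search and the wider windows bring by construction, the cause was not tested.

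With reference over tissue every sign turns by construction. The medians were then 0.014 for the tumor, -0.015 for the control and 0.024 for the difference, and 62.7% of control windows lay below 0. The tumor interval means in order of position were 1.83, 0.34, -0.50, 0.37, 0.47, -0.25 and -1.45, the last with -0.76 on the control array, and the 12-probe stretch had -0.54 in the tumor and 0.88 in the control. The tumor windows from 17, 19, 24, 33, 35, 36, 57, 61, 64 and 66 Mb were then 0.29, -0.27, 0.39, -0.26, -0.28, -0.25, 0.26, 0.30, 0.36 and -0.40, and the last was -0.28 on the control array. No paired analysis was possible because there was 1 array per tissue and the replicate numbers only name them. GC content could not be corrected for, since no probe sequence was used here, and this alternative was not run. Dim probes limited the ratios, as 304 chromosome 10 probes of the tumor array and 311 of the control array carried a surrogate in at least 1 channel, and the 89 with surrogates in both channels had a median log2 ratio of 0.89 and 0.91.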

Other observations

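Of the chromosome 10 probes, 4179 were well above background in both channels on both arrays. By the mean of both arrays the lowest of these was the probe at 54028326, with a log2 ratio of -2.29 in the tumor and -1.47 in the control and reference signals of 10304 and 5720, followed by 24651251 with -1.45 and -1.08, inside the loss from 23684626 to 24837220, and 46639426 with -1.27 and -1.12. The highest were the probe at 56791301 with 0.82 and 1.76, the one at 52266201 with 1.60 and 0.62, and the one at 34297151 with 1.30 and 0.75, inside the gain from 33314801 to 36670745. Their tissue signals on the tumor array were 45.5, 49.8 and 44.9, below the chromosome 10 median of 73.0. That both arrays share the sign follows in part from choosing the probes by their mean.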
